A study of Macaca mulatta with 12 samples.

Results

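The miR-23, miR-27 and miR-24 family of *Macaca mulatta* has 6 pre-miRNAs among the 831 taken here from the study's table. The a cluster holds mml-mir-23a, mml-mir-27a and mml-mir-24-2, and the b cluster holds mml-mir-23b, mml-mir-27b and mml-mir-24-1. The members were chosen by name, and reads that fit both clusters were kept apart from reads that fit only 1 gene. In the T2T-MMU8v2.0 annotation of RefSeq, the genes of the b cluster lie within AOPEP, a protein-coding gene, and those of the a cluster lie within LOC144336708, a long noncoding RNA gene.

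Small RNAs were sequenced in 12 profiles of 8 tissues. There were 2 profiles each of muscle, kidney, large intestine and small intestine, and 1 each of lung, liver, occipital lobe and spinal cord. All animals were wild-type rhesus macaques of 36 months without treatment, so that tissue was the only difference named in the labels. By the study's methods the 12 profiles came from 2 animals, so that profiles of different tissues share an animal and are not independent, although the tests take each profile as a unit. The labels do not tie a profile to its animal, and p-values therefore measure only the spread between these profiles. For tests between tissues, the spinal cord and the occipital lobe formed 1 neural group, whose spread is that between the 2 tissues.

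The genes of a cluster are transcribed together, and each hairpin is cut to a duplex of a 5p and a 3p arm, of which 1 arm is usually kept on an Argonaute protein. The seed, bases 2 to 8 of the mature miRNA, sets most of the target choice. These miRNAs are known from blood vessel growth, from muscle mass and muscle stem cells, and, for miR-27, from lipid metabolism. The 3p arms of the paralogs share their seeds, so that for these arms the use of the a or b gene can be seen only outside the seed.

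The 3p arms of miR-23 and miR-27 are shown because a single base separates the paralogs. The base is at position 19, counted from 1 at the 5′ end, and is in capitals (U19A from miR-23a-3p to miR-23b-3p, and C19U from miR-27a-3p to miR-27b-3p).
miR-23a-3p: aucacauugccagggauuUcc
miR-23b-3p: aucacauugccagggauuAcc
miR-27a-3p: uucacaguggcuaaguucCgcc
miR-27b-3p: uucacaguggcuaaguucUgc

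The arms that serve to tell the clusters apart in other ways are shown with the seed in capitals. The miR-24-3p arms of both clusters are identical, and the miR-24-5p arms differ at 6 of 23 bases but share the seed. The miR-27-5p arms differ at 8 of 22 compared bases, of which 1 is in the seed (G3A).
miR-24-3p: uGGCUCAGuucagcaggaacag
miR-24-2-5p: gUGCCUACugagcugaaacacag
miR-24-1-5p: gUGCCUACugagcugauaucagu
miR-27a-5p: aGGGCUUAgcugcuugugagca
miR-27b-5p: aGAGCUUAgcugauuggugaaca

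Of the other pre-miRNAs in the table, only mml-mir-23b-1 has a mature miRNA with a member's seed (UCACAUU, that of miR-23-3p). Only 2 reads were assigned to its 3p arm in the 12 profiles.

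The profiles held 22118095 to 25579064 valid reads, so that 1 read stood for 0.391 to 0.452 reads per 10000000 valid reads (RPTM). A count of 0 allows a level of up to 1.17 to 1.36 RPTM (3 reads). Marker miRNAs followed the tissue labels. The summed level of 3 muscle markers was 130400 and 145900 RPTM in the muscle profiles and at most 918 RPTM in the others, and that of 3 neural markers was 396700 RPTM in the occipital lobe and 283100 RPTM in the spinal cord against at most 996 RPTM elsewhere. miR-122a-5p of liver cells was at 7320 RPTM in liver and at most 4.37 RPTM elsewhere. The 2 intestine markers found in the table summed to 189900 and 199500 RPTM in small intestine, 23610 and 9219 RPTM in large intestine, 10530 RPTM in liver and at most 1917 RPTM in the rest.

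Most reads of miR-23 and miR-27 could be given to 1 gene, and most reads of miR-24 could not. Reads that end before position 19 fit both paralogs, which was so for 546 reads of miR-23 and 7023 reads of miR-27. They made 3.18% of the reads on mml-mir-23a, 3.04% on mml-mir-23b, 10.5% on mml-mir-27a and 0.224% on mml-mir-27b. For miR-24, 17435 reads fit both genes, which was 91.7% of the reads on mml-mir-24-2 and 98.7% of those on mml-mir-24-1. The use of mml-mir-24-1 and mml-mir-24-2 was therefore read from the rare 5p arms alone.

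The b cluster gave nearly all miR-27-3p, while both clusters gave similar amounts of miR-23-3p. Over the 12 profiles, 17224 reads were of miR-23b-3p and 16488 of miR-23a-3p, but 3108178 were of miR-27b-3p and 44054 of miR-27a-3p. The ratio of b to a reads had a median of 0.946 for miR-23-3p (0.521 to 9.26) and of 58.9 for miR-27-3p (31.4 to 486.2). These reads had both ends within 2 nt of the annotated ends, which left out more short reads of miR-27a-3p than of miR-27b-3p. With any ends, 58651 reads were of miR-27a-3p and 3108258 of miR-27b-3p. The ratio of miR-27-3p then ran from 27.4 in muscle 2 to 192.1 in the occipital lobe. The shortest of these miR-27a-3p reads were assigned by their last base alone. In reads of 21 nt or longer, which tell the miR-27-3p paralogs apart more safely, the median ratio of miR-27-3p was 32.5 (13.2 to 323.7). Of the 11 distinct mature arms, 8 passed the study's filter on low levels, which asks for a mean of 5 RPTM or more and an SD of 1 or more. The other arms were miR-23a-5p with 1 read, miR-23b-5p with 35 reads and miR-24-1-5p with 132 reads in all profiles.

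miR-27b-3p was by far the most abundant member, with a median of 117007 RPTM. It was at 194312 RPTM in lung, 171822 in liver, 154465 in occipital lobe, 135959 in spinal cord, 126130 and 136142 in muscle, 107884 and 77725 in kidney, 49792 and 51826 in small intestine, and 48566 and 53786 in large intestine. The 4 intestine profiles were thus the lowest, and the small and large intestine overlapped.

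miR-23b-3p varied by 2.71-fold between the lowest and the highest profile. It was at 906 RPTM in occipital lobe, 892 in lung, 837 in spinal cord, 629 and 868 in muscle, 695 and 468 in kidney, 553 in liver, 348 and 344 in small intestine, and 335 and 389 in large intestine. As for miR-27b-3p, the intestine had the lowest levels, and the neighbouring tissues above it overlapped.

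The arms of the a cluster had a wider range. miR-23a-3p was at 1207 and 1519 RPTM in muscle, 1268 in lung, 378 and 517 in large intestine, 346 and 420 in small intestine, 392 and 275 in kidney, 323 in spinal cord, 263 in liver and 97.8 in occipital lobe. Muscle and lung stood above all other profiles, and the occipital lobe stood below them, with a 15.5-fold range. The tissues in between overlapped.

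miR-27a-3p was at 3126 and 4338 RPTM in muscle, 3607 in lung, 1283 in liver, 1072 and 1089 in large intestine, 838 and 889 in small intestine, 698 and 695 in kidney, 792 in spinal cord and 318 in occipital lobe. Lung lay between the muscle profiles, and the occipital lobe was again the lowest. Counted reads had both ends within 2 nt of the annotated ends, which left out 19-nt reads of the 22-nt miR-27a-3p. The same holds for the edgeR tests below. In reads from its annotated start, the 19-nt form made 9.63% in kidney 1, 10.2% and 12.6% in muscle and 60.5% in occipital lobe. With any ends, the occipital lobe (1850 of 23009849 valid reads) was no longer the lowest and lay above kidney 1 (1980 of 25579064). That order rests on the 19-nt reads, which were assigned to miR-27a-3p by their last base alone.

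miR-24-3p, which both clusters give, was at 1549 RPTM in lung, 1001 and 1231 in muscle, 609 in occipital lobe, 613 in spinal cord, 376 and 412 in kidney, 374 in liver, 325 and 333 in large intestine and 304 and 269 in small intestine. In RPTM, its neural levels were above those of kidney, liver and intestine, unlike those of miR-23a-3p.

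**Figure D1:**
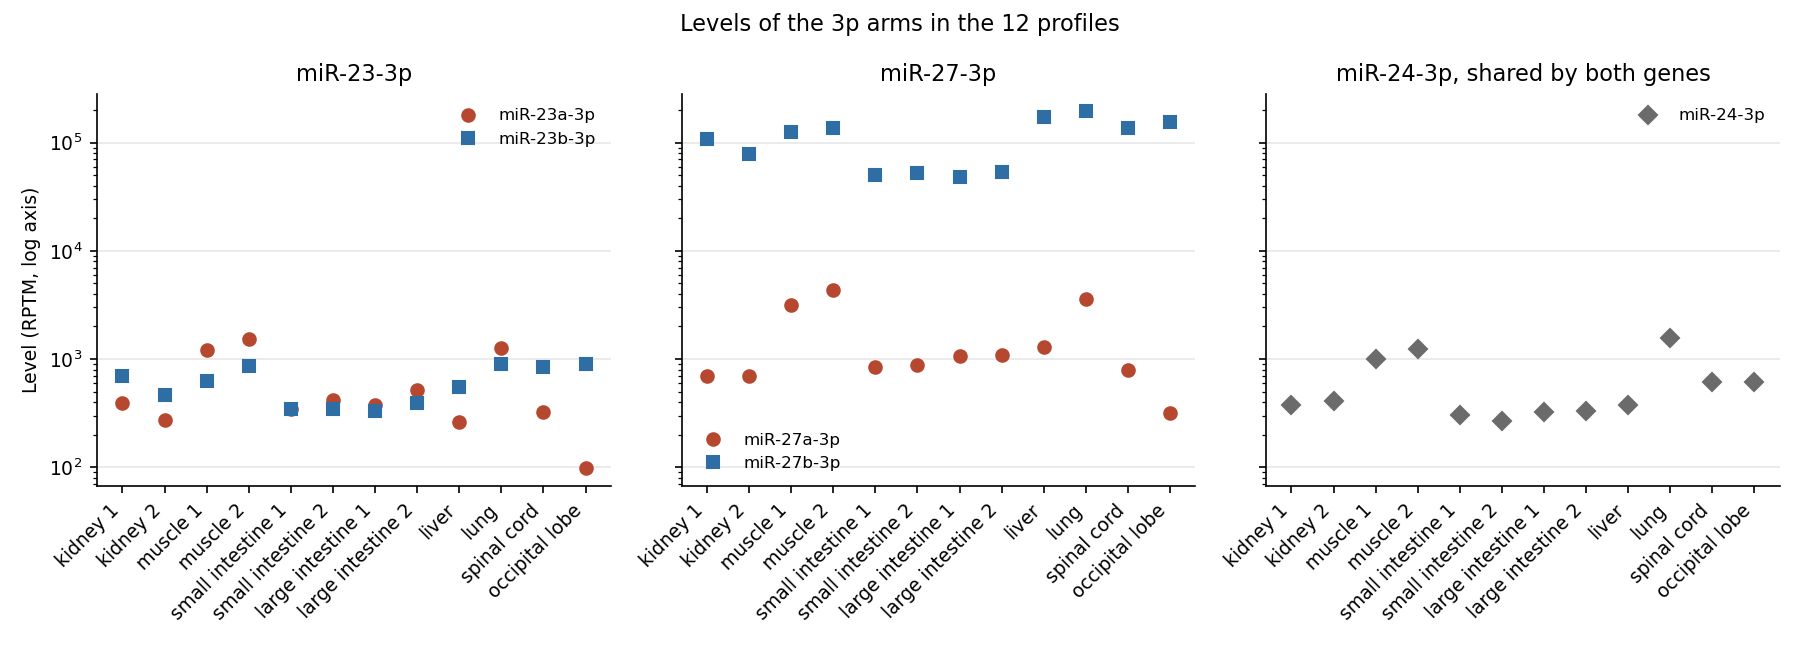
Levels of the 3p arms in RPTM on a log axis for each of the 12 profiles, with a points (circles) and b points (squares) for miR-23-3p and miR-27-3p and the shared miR-24-3p (diamonds). The a points are highest in muscle and lung and lowest in the occipital lobe (97.8 RPTM for miR-23a-3p), while miR-27b-3p is at 48566 RPTM or more in all profiles.

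In muscle, all 4 tested arms of the a cluster were higher than the mean of the other groups, as was 1 of 3 of the b cluster. Together 6 of the 8 tested members were called higher and none lower in edgeR's quasi-likelihood test (adjusted p under 0.05 over all 371 miRNAs tested), against 22.9% of all tested miRNAs higher and 15.4% lower (38.3% in either direction). The median log2 fold change was 1.89 over the a arms and 0.40 over the b arms, against -0.23 over all tested miRNAs. The groups compared share profiles across the comparisons, so that the comparisons are not independent.

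On the log2 scale, miR-23a-3p was higher in muscle by 1.78 ± 0.32 (SE, edgeR adjusted p = 0.000841) and miR-27a-3p by 1.77 ± 0.28 (edgeR adjusted p = 0.000314). The arm miR-24-2-5p, which is unique to the a cluster, had 147 and 213 RPTM in muscle and 5.65 to 77.0 RPTM elsewhere, without overlap, and was higher by 2.83 ± 0.43 (edgeR adjusted p = 0.000209). The shared miR-24-3p was higher by 1.18 ± 0.29 (edgeR adjusted p = 0.00649), but not when only reads identical to the annotated sequence were counted (0.86, adjusted p = 0.121).

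The major arms of the b cluster did not pass the test in muscle. miR-23b-3p differed by 0.40 ± 0.30 (edgeR adjusted p = 0.320) and miR-27b-3p by 0.34 ± 0.34 (edgeR adjusted p = 0.469). The value of miR-27b-3p depended on which reads were counted. With reads of 21 nt or longer, an alternative chosen after seeing the data, it was 1.10 (edgeR adjusted p = 0.00874), and with identical reads it was 1.08 (adjusted p = 0.0141). Both leave out the 20-nt form, which made 73.7% to 92.6% of miR-27b-3p by profile, so that they mix length with level. miR-23b-3p passed when tails of up to 2 nt were allowed (0.75, adjusted p = 0.0409).

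The summed level of 7 blood cell markers was also high in muscle. It was 452100 and 823700 RPTM there, 277100 in lung, 277500 in occipital lobe and 10920 to 173000 in the other profiles, and nearly all of it was miR-486-5p, which muscle cells are known to express too. miR-451-5p of red blood cells was at 295 RPTM in muscle 1 and 5006 RPTM in muscle 2. Not all markers were high in muscle. miR-142-3p was at 25.45 and 23.97 RPTM in muscle and at 188.6 RPTM in small intestine 1. miR-223-3p was at 22.95 and 47.06 RPTM in muscle and at 816.3 RPTM in lung. miR-150-5p went the other way, with 1473 and 2354 RPTM in muscle, below only lung at 6881 RPTM. The part of these markers in the result was not tested.

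In the neural group, all 4 arms of the a cluster were lower than the mean of the other groups and none of the 3 tested arms of the b cluster passed the test. With miR-24-3p, 5 of 8 members were called lower and none higher, where 24.5% of all tested miRNAs were lower and 43.7% higher (68.2% in either direction). The median log2 fold change was -2.65 over the a arms and -0.45 over the b arms, against 0.88 over all tested miRNAs. miR-23a-3p fell by 2.64 ± 0.44 on the log2 scale (SE, edgeR adjusted p = 0.000183), miR-27a-3p by 2.67 ± 0.38 (edgeR adjusted p = 6.00e-05) and miR-27a-5p by 3.55 ± 0.62 (edgeR adjusted p = 0.000257). The size of these differences depended on the tissue kept in the group. Without the spinal cord they were -3.49, -3.25 and -4.47, and without the occipital lobe -2.08, -2.25 and -2.996, all still called in edgeR.

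The other neural values depended on the scale. miR-24-2-5p was at -2.48 ± 0.60 and miR-24-3p at -0.96 ± 0.33 (edgeR adjusted p = 0.00282 and 0.0218), the former at -3.74 without the spinal cord and -1.81 without the occipital lobe. The b arms were at -0.45 ± 0.32 for miR-23b-3p, -0.60 ± 0.37 for miR-27b-3p and -0.25 ± 0.32 for miR-27b-5p (edgeR adjusted p = 0.217, 0.166 and 0.496). When levels were scaled by the valid reads, without TMM factors, the median of all tested miRNAs in the neural group moved from 0.88 to 1.97. miR-24-2-5p then no longer passed (-1.21, adjusted p = 0.112), miR-24-3p (0.19), miR-23b-3p (0.67), miR-27b-3p (0.52) and miR-27b-5p (0.87) turned to higher, and the 3 other a arms stayed lower and called (-1.37 to -2.31). In bulk tissue, fewer cells that express a miRNA and less of it per cell cannot be told apart.

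Kidney and small intestine had no member called in edgeR's quasi-likelihood test, where 17.5% of all tested miRNAs were called in kidney (12.9% higher, 4.58% lower) and 18.6% in small intestine (13.5% higher, 5.12% lower). The lowest unadjusted p-values of the members were 0.0806 in kidney and 0.165 in small intestine in this test, and DESeq2 called 0 members in either tissue. With the valid reads, 3 members were called in small intestine. Among the 8 numbered profiles alone, where each tissue is set against fewer others, 5 members were called in kidney and 2 in small intestine. In large intestine, where 16.7% of all tested miRNAs were called (11.9% higher, 4.85% lower), only miR-27a-5p of the 8 members was called, higher by 1.75 ± 0.42 (edgeR adjusted p = 0.0140). It was at 43.0 and 39.1 RPTM there, below the 104 RPTM of lung and the 74.3 and 78.9 RPTM of muscle. The call was lost without either large intestine profile (adjusted p = 0.126 and 0.130, where the remaining profile is assumed to vary like the other groups) and with the valid reads (0.158).

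The share of the a gene within a paralog pair is free of depth and of the scale between profiles. For miR-23-3p, the a gene gave 65.7% and 63.6% of the reads in muscle, 58.7% in lung, 53.0% and 57.1% in large intestine, 49.8% and 55.0% in small intestine, 36.1% and 37.0% in kidney, 32.2% in liver, 27.8% in spinal cord and 9.74% in occipital lobe. The Wilson 95% interval was 64.3% to 67.1% in muscle 1 (2894 of 4402 reads) and 8.60% to 11.02% in the occipital lobe (225 of 2309 reads), and these intervals cover counting error only. The order ran from muscle over lung and intestine to kidney, liver and the neural tissues. Large and small intestine overlapped, and kidney 1 and 2 were alike within their intervals.

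Reads with tails of up to 2 nt moved the median share of miR-23a-3p from 51.4% to 46.6%. The order of the 12 profiles was then as before, with 56.7% in muscle 1 and 8.68% in the occipital lobe. The order also stood with reads of 21 nt or longer.

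For miR-27-3p, the base at position 19 had to be read with care because miR-27b-3p was so abundant. Of the 20-nt reads, which end 1 base after it, 25033 had the C of miR-27a-3p, but 18001 had a G that neither gene has. In liver, the spinal cord and kidney 1 the G was more frequent than the C. Of the 21-nt reads, 17655 had the C and 107 a base of neither gene. Reads of 21 nt or longer were therefore used as well, chosen after seeing the data, and with these the median share of the a gene was 2.98% in place of 1.67%.

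In these longer reads the a gene gave 6.75% and 7.05% of miR-27-3p in muscle, 5.17% in lung, 3.54% and 4.55% in large intestine, 2.92% and 3.04% in small intestine, 2.14% in liver, 1.75% and 1.82% in kidney, 0.907% in spinal cord and 0.308% in occipital lobe. The Wilson 95% interval was 6.88% to 7.22% in muscle 2 (6337 a reads) and 0.267% to 0.355% in the occipital lobe (192 a reads). In unique reads with both ends within 2 nt of the annotated ends, the share ran from 0.205% in the occipital lobe to 3.09% in muscle 2. Muscle was highest and the neural tissues were lowest in both of these sets, while lung moved from below large intestine to above it. The rule on ends left out more short reads of miR-27a-3p than of miR-27b-3p, whose annotated sequence is shorter. With any ends the share ran from 0.518% in the occipital lobe to 3.52% in muscle 2. Muscle 1 (2.69%) was then below large intestine 1 (3.25%). In edgeR, miR-27a-3p from the longer reads was higher in muscle by 2.77 (adjusted p = 1.38e-05). The 21-nt form made 50.5% and 53.4% of the reads assigned to miR-27a-3p in muscle, against 8.79% (occipital lobe) to 39.7% (kidney 1) elsewhere. Length and level therefore cannot be told apart in the longer reads.

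**Figure D2:**
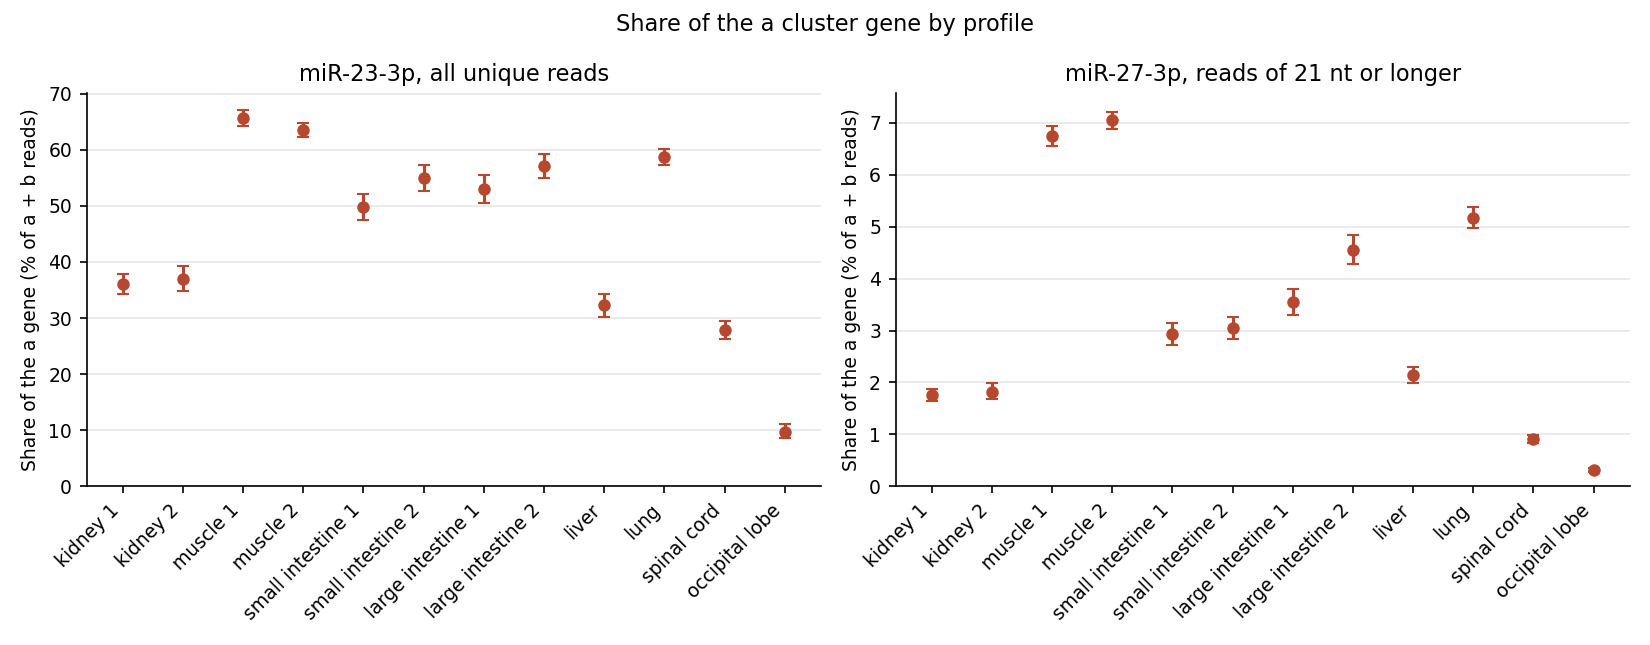
Share of the a gene in percent of the reads unique to the a or b gene, with 1 point for each profile and Wilson 95% intervals. Left, miR-23-3p, all unique reads with both ends within 2 nt of the annotated ends. Right, miR-27-3p, reads of 21 nt or longer. In both panels the muscle profiles are highest (65.7% and 7.05% at most) and the occipital lobe is lowest (9.74% and 0.308%).

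The paralog ratios of the 2 families moved together over the profiles. The log2 ratios of a to b reads of miR-23-3p and miR-27-3p had a Pearson's r of 0.980 and a Spearman's rho of 0.937 over the 12 profiles, which is a description, since both were counted in the same libraries and 4 tissues have 2 profiles each. With the longer reads of miR-27-3p, r was 0.980 and rho 0.965. The ratio of miR-24-2-5p to miR-24-1-5p had an r of 0.737 with that of miR-23-3p and of 0.744 with that of miR-27-3p.

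The mean log2 ratio of a to b reads of miR-23-3p was 1.46 higher in the muscle profiles than in the other 10 profiles, without overlap, and that of miR-27-3p was also 1.46 higher. In the neural group the differences were -2.34 for miR-23-3p and -2.17 for miR-27-3p, again without overlap. Each of these had p = 0.0303 in a two-sided exact permutation test, which is the smallest that 2 against 10 profiles can give, and an adjusted p of 0.0909 over 15 tests, so that none passed. With the longer reads the differences of miR-27-3p were 1.80 in muscle and -2.75 in the neural group (exact permutation p = 0.0303). With any ends, the a shares of miR-27-3p in muscle and in the neural group each overlapped with those of other profiles. These shares include the 19-nt reads, which were assigned by their last base alone.

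Profiles of the same tissue had alike shares. The mean absolute difference of the log2 ratio within the 4 tissue pairs was 0.18 for miR-23-3p and 0.24 for miR-27-3p, against 0.77 and 0.89 on average over all ways to pair the 8 profiles (one-sided exact permutation p = 0.0286 and 0.00952, the latter the smallest possible). After adjustment over 12 such tests both were 0.114 and did not pass.

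For the rare miR-24-5p, most reads assigned within 2 nt of the arm ends were of the a cluster in all profiles. The ends of miR-24-2-5p were set from the start and length of miR-24-1-5p. Of the reads with any ends, this rule kept 1484 of 1573 of the a cluster and 132 of 232 of the b cluster. The share of miR-24-2-5p was 98.3% and 96.9% in large intestine, 93.6% in lung, 93.1% and 93.1% in muscle, 92.8% and 78.6% in kidney, 87.2% and 91.3% in small intestine, 84.4% in spinal cord, 76.3% in liver and 72.2% in occipital lobe. The Wilson 95% interval of the occipital lobe was 49.1% to 87.5%, from 18 reads, and that of large intestine 1 was 91.1% to 99.7%, from 60 reads. The a cluster did not lead in all profiles under other rules. With any ends it had 16 of 33 reads in the occipital lobe, and with identical reads it had 0 of 3 there, 0 of 1 in kidney 2 and 8 of 16 in liver. Large intestine stood above the others without overlap (exact permutation p = 0.0303, adjusted p = 0.0909), and the within-tissue difference had p = 0.0476 (one-sided exact permutation, adjusted p = 0.114).

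The arms of a hairpin were used unequally. In mml-mir-23a and mml-mir-23b the 5p arm was rare in all profiles, with a 5p share of at most 0.895% (18 of 2011 reads in muscle 2 for mml-mir-23b). In mml-mir-27b the 3p arm also dominated, but the 5p arm was more used in muscle than elsewhere.

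miR-27b-5p was at 1621 and 1928 RPTM in muscle, 734 in occipital lobe, 631 in spinal cord and 207 to 405 RPTM in the other profiles. It was higher in muscle by 2.46 ± 0.27 on the log2 scale (SE, edgeR adjusted p = 1.79e-05), while the 3p arm of the same hairpin was at 0.34. The 5p share of mml-mir-27b was 1.27% and 1.40% in muscle, 0.372% to 0.563% in kidney, intestine and the neural tissues, 0.168% in lung and 0.120% in liver. Muscle did not overlap with the other tissues, and liver and lung were below them. The within-tissue difference of the log2 ratio was 0.15 against 0.84 over all pairings (one-sided exact permutation p = 0.0286, adjusted p = 0.114).

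The 5p arm of mml-mir-27a did not have this pattern. Its share was 3.85% and 3.47% in large intestine, 2.82% in lung, 2.32% and 1.79% in muscle, 1.54% and 2.63% in small intestine, 1.22% and 1.58% in kidney, 1.15% in spinal cord, 0.842% in liver and 0.814% in occipital lobe. miR-27a-5p itself was higher in muscle by 1.99 ± 0.42 on the log2 scale (edgeR adjusted p = 0.00247), as was its 3p arm. The reads of the 3p arm include the 20-nt reads described above, so that these shares rest in part on them.

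**Figure D3:**
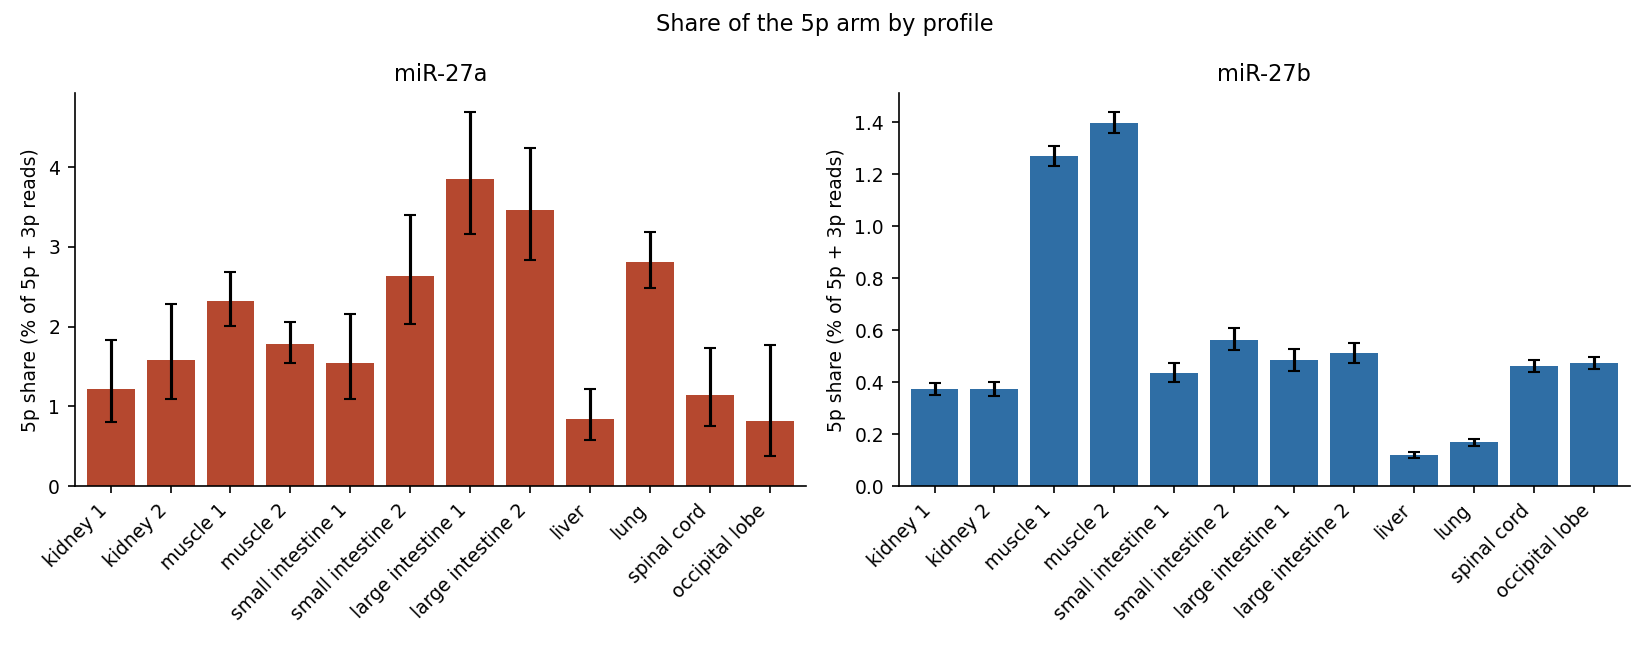
Share of the 5p arm of mml-mir-27a (left) and mml-mir-27b (right) in each profile, as bars from 0 with Wilson 95% intervals. It is in percent of the 5p and 3p reads with both ends within 2 nt of the annotated ends. For mml-mir-27b the muscle bars (1.27% and 1.40%) are above all others, and for mml-mir-27a those of large intestine are highest.

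The ends of the reads differed from the annotated ends in miR-27 and miR-24. At the 5′ end, 97.6% to 99.7% of the reads of the 7 arms examined began at the annotated base. At the 3′ end, miR-23a-3p and miR-23b-3p mostly had the annotated 21 nt, with 72.8% to 82.8% and 71.1% to 79.0% of the reads by profile. miR-27b-3p mostly had 20 nt, 1 less than annotated, and miR-24-3p mostly had 20 nt (79.5% to 90.2%), while its annotated 22 nt made 2.43% to 7.20%.

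The length of miR-27b-3p differed between profiles. The 20-nt form made 92.6% in liver, 91.1% in lung, 82.9% and 85.9% in kidney, 83.9% and 83.6% in large intestine, 82.8% in occipital lobe, 82.2% and 80.6% in small intestine, 80.4% and 73.7% in muscle and 78.5% in spinal cord. The annotated 21-nt form made 5.46% in liver, 6.73% in lung, and 17.0% and 23.5% in muscle. Liver and lung thus had the shortest miR-27b-3p, and muscle 2 and the spinal cord had the longest. The within-tissue difference was 2.91 percentage points against 4.04 over all pairings (one-sided exact permutation p = 0.0476, adjusted p = 0.114).

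For miR-27a-3p no single length led in all tissues. The 20-nt form, which holds the reads whose position 19 could not be read safely, made 29.6% to 51.9% and was the commonest in 8 of 12 profiles. The 21-nt form led in muscle (50.5% and 53.4%), and the 19-nt form led in the occipital lobe (60.5%) and kidney 2 (41.9%). The 19-nt form ends on position 19 and was assigned by that last base alone. A shorter shared read with an added C cannot be told apart from it. Of the 19-nt reads of miR-27-3p, 14520 of 47020 had the C, against 17655 of 431734 of the 21-nt reads. In the occipital lobe this was 1115 of 6050 against 162 of 49671. Which gene gave the 19-nt reads was not tested. The annotated 22-nt form of miR-27a-3p made 0.643% to 3.29%. The 5p arms mostly had 22 nt, which is the annotated length of miR-27a-5p and 1 less than that of miR-27b-5p (94.6% to 98.7% of its reads).

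miR-23b-3p carried more uridine tails than miR-23a-3p. Reads that went on from a templated end with 1 or 2 untemplated U made 26.8% and 26.1% of miR-23b-3p in muscle, 13.3% and 20.6% in large intestine, 16.3% and 11.01% in kidney, 14.1% and 14.85% in small intestine, 15.5% in liver, 14.5% in spinal cord, 11.2% in lung and 10.99% in occipital lobe. For miR-23a-3p they made 0.844% to 4.01%, and miR-23b-3p was higher in 12 of 12 profiles, by 8.57 to 23.6 percentage points. The 3′ adapter also begins with T. Reads that ended in the first bases of the adapter numbered 102 for miR-23b-3p and 57 for miR-23a-3p, and the part of the adapter in these tails was not tested. Muscle had the most tails in both.

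Tails of U were less frequent in miR-27b-3p (3.10% to 7.67%, highest in muscle 2). In miR-24-3p, tails of U made 5.32% to 13.7% and tails of A 2.86% to 10.04%. A tail of A after a template that reads A cannot be told apart from a longer templated end.

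**Figure D4:**
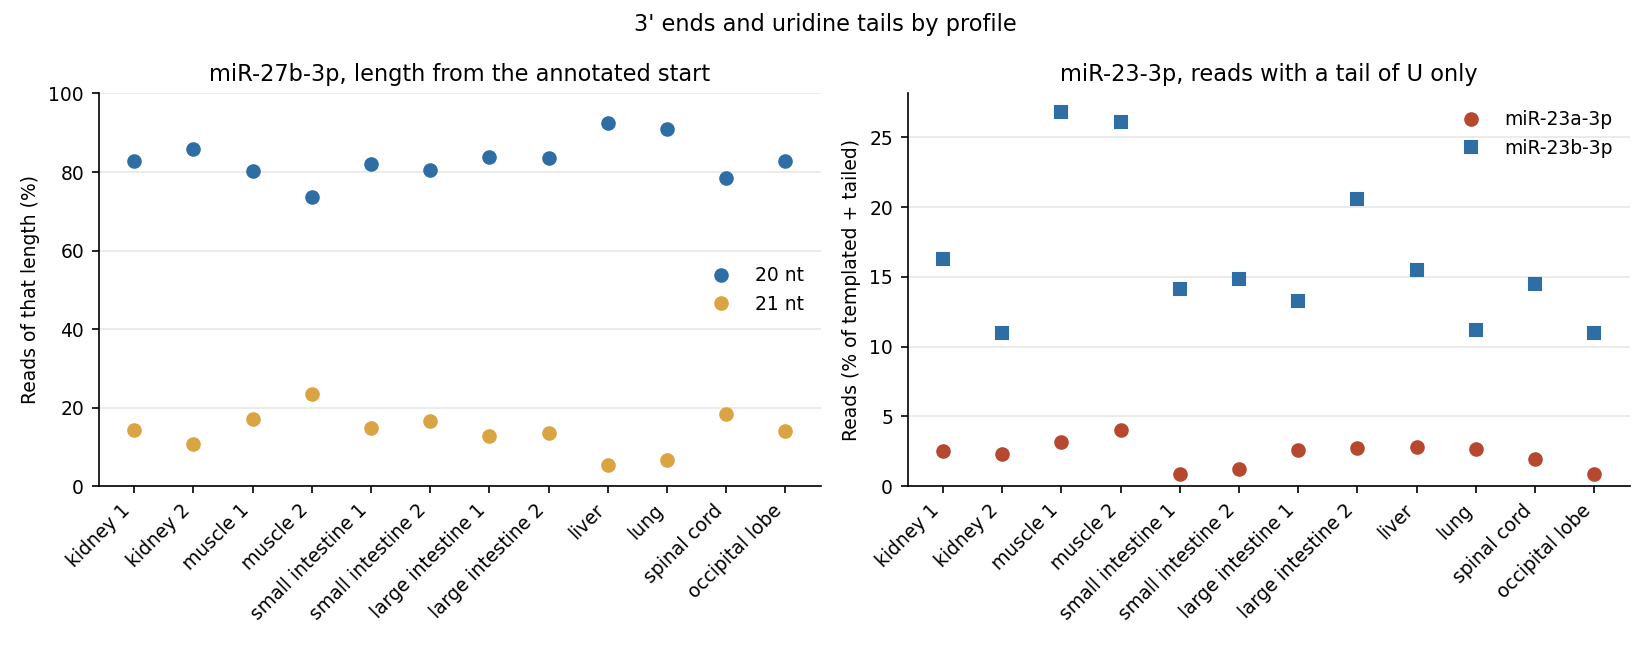
Left, share of miR-27b-3p reads of 20 and 21 nt among reads that begin at the annotated base, in percent by profile. Right, share of miR-23a-3p (circles) and miR-23b-3p (squares) reads with a tail of U only, where the squares are above the circles in all profiles and reach 26.8% in muscle.

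A C-to-U change at position 10 was the main substitution in the family among the positions tested. The last 3 bases of each read and the positions that tell paralogs apart were left out. A call asked for a level of at least 5%, at least 10 changed reads and an adjusted p under 0.05 (exact binomial test against an error rate of 0.001, adjusted over all combinations). Of 6735 combinations of change and profile, 19 were called. Of these 19, 11 were C10U in miR-23b-3p and 7 were C10U in miR-23a-3p. The other was A1G in miR-27a-5p of lung, at 7.28% (19 of 261 reads). The position of C10U is 67 in the hairpin of mml-mir-23b and 54 in that of mml-mir-23a, and it is outside the seed.
miR-23a-3p, changed: aucacauugUcagggauuucc
miR-23b-3p, changed: aucacauugUcagggauuacc

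The capital marks the changed base. Its first 18 bases occur in none of the 831 pre-miRNAs, while the unchanged ones occur in 2, the members themselves. The genome was not searched.

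In miR-23b-3p the C10U level was 14.3% and 16.8% in muscle, 12.7% and 11.7% in large intestine, 8.23% and 11.55% in small intestine, 10.2% in lung, 8.28% in occipital lobe, 7.89% in spinal cord, 5.21% and 5.39% in kidney and 3.17% in liver. The Wilson 95% interval was 15.3% to 18.3% in muscle 2 (400 of 2386 reads) and 2.38% to 4.20% in liver (46 of 1453 reads). Muscle was above all other tissues, and kidney and liver were below them. Within the tissue pairs the levels differed by 1.74 percentage points on average against 4.97 over all pairings (one-sided exact permutation p = 0.00952, the smallest possible, in a test chosen after seeing the data).

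In miR-23a-3p the level was lower. It was 6.51% and 7.51% in muscle, 5.48% and 8.23% in small intestine, 5.51% and 5.42% in large intestine, 5.79% in occipital lobe, 4.99% in spinal cord, 4.79% in lung, 3.13% and 2.003% in kidney and 3.12% in liver. The tissues overlapped more than in miR-23b-3p (within-tissue difference 1.24 against 2.46 over all pairings, one-sided exact permutation p = 0.0857). The changes C10A and C10G were at most 0.286% in both miRNAs and all profiles.

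miR-23b-3p had the higher C10U level in 12 of 12 profiles. The mean was 9.61% ± 4.01 (SD, n = 12) in miR-23b-3p and 5.21% ± 1.80 in miR-23a-3p. The mean difference was 4.40 ± 2.74 percentage points, from 0.0497 in liver to 9.25 in muscle 2 (two-sided exact permutation of the signs, p = 0.000488, the smallest possible, chosen after seeing the data and treating the profiles as independent). Counting the changed reads with each gene lowered the a share of miR-23-3p by up to 2.42 percentage points, to 63.8% and 61.2% in muscle.

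**Figure D5:**
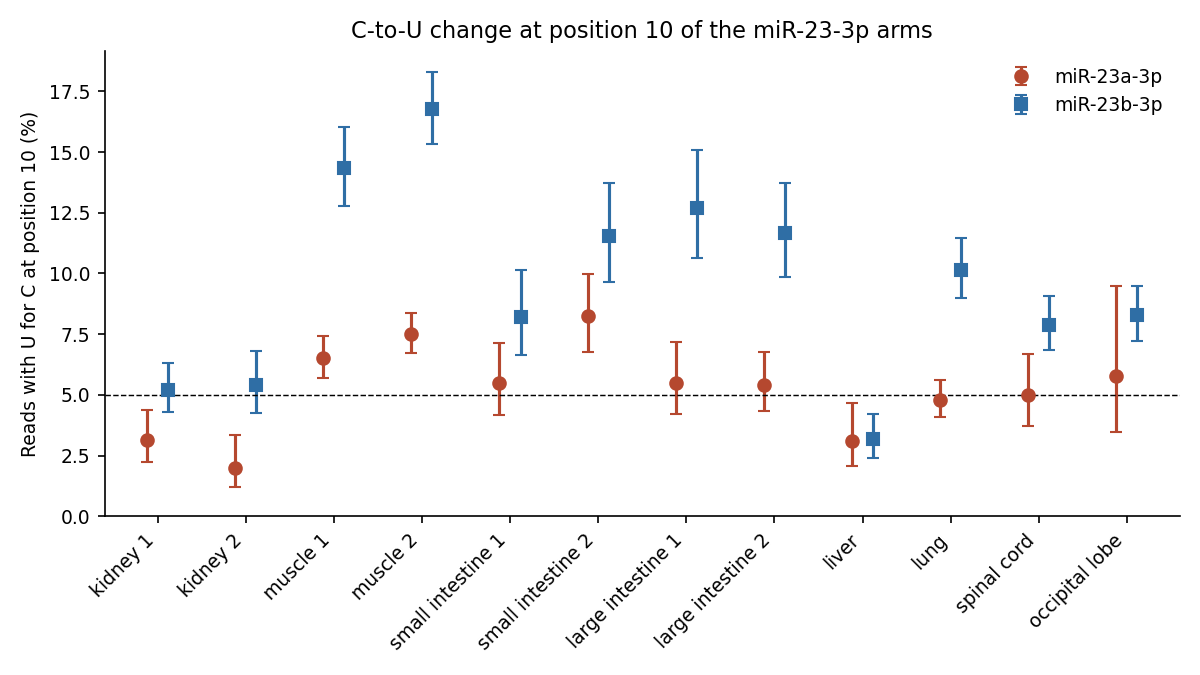
Share of reads with U in place of C at position 10 in miR-23a-3p (circles) and miR-23b-3p (squares), in percent by profile with Wilson 95% intervals, and the level of 5% needed for a call as a dashed line. The squares of muscle are highest (14.3% and 16.8%), and in liver both miRNAs are near 3%.

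Among the 371 tested miRNAs, those most like a cluster were found by Spearman's rho over the 12 profiles on the log2(RPTM + 1) scale, as a description. For miR-23a-3p plus miR-27a-3p they were miR-574-3p (rho = 0.909), miR-627-5p (0.860) and miR-92a-3p (0.804). For miR-23b-3p plus miR-27b-3p they were miR-144-3p of red blood cells (0.937), miR-26b-5p (0.902) and miR-186-5p (0.874). miR-144-3p ranged from 3.17 to 242 RPTM. The endothelial miR-126-3p was at 9051 RPTM in lung, 1769 and 2049 in muscle and 325 to 1680 in the other profiles, and its part in the levels of either cluster was not tested. The summed level of 4 smooth muscle and stroma markers was 2352000 and 3575000 RPTM in large intestine, 2968000 and 3172000 in small intestine, 965200 and 664300 in muscle and 103400 in occipital lobe. Nearly all of this sum was miR-143-3p. miR-145-5p was also higher in the intestine (399 to 931 RPTM) than in muscle (363 and 326). miR-199a-3p was at 18530 and 6357 RPTM in muscle and 6733 and 6011 in large intestine. miR-214-3p was at 164 and 60.6 RPTM in muscle and 34.8 and 33.6 in large intestine. The part of these markers in the levels of either cluster was not tested.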

How the data were processed

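The deposited counts of unique sequences were made by the authors, who sequenced TruSeq small RNA libraries on a HiSeq 2000, kept reads of high quality, removed the 3′ adapter and discarded sequences shorter than 18 nt, without normalization. Depth was 22118095 to 25579064 reads.

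Reads were matched exactly to 831 pre-miRNAs in Python 3.11.15 (scipy 1.17.1) and assigned to a mature miRNA when both ends were within 2 nt, and reads that fit several genes were kept apart. The 5p arm of mml-mir-24-2 was taken from its own hairpin. The 371 mature sequences past the filter were tested with edgeR 4.0.16 in R 4.3.3 (TMM factors, 7 groups, each group against the mean of the others, Benjamini-Hochberg adjustment). SEs were derived from the F statistic. Log2 ratios used a pseudocount of 0.5 reads. Liver and lung were not tested. Alternatives included DESeq2 1.42.0. The steps were tested on simulated data. No genome was used, so other copies were not searched. All member arms, miRNAs sharing a seed and the 3 most alike miRNAs per cluster were named. The members, lists and tests were chosen with earlier results of these data known.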

Additional observations from a re-analysis of the deposited data

How the results depend on the processing

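The arms of miR-23a-3p, miR-27a-3p, miR-27a-5p, miR-24-2-5p and miR-27b-5p were called higher in muscle, and those of miR-23a-3p, miR-27a-3p and miR-27a-5p lower in the neural group, under every alternative that could be fitted. The number of members called was 5 to 8 in muscle and 4 to 7 in the neural group. With the valid reads in place of TMM, 3 members were called in small intestine and 2 in large intestine, and in the neural group miR-24-3p (0.19), miR-23b-3p (0.67), miR-27b-3p (0.52) and miR-27b-5p (0.87) and in large intestine miR-23a-3p (-0.10) changed sign on the log2 scale. Leaving out 1 profile at a time gave 0 to 2 members in large intestine. Without the spinal cord, miR-24-3p no longer passed in the neural group (-0.84, edgeR adjusted p = 0.0592) and 2 members passed in large intestine.

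On the 8 numbered profiles alone, without the block, the called members numbered 5 (kidney), 2 (small intestine) and 0 (large intestine). With the replicate block, 2, 1 and 0 were called, and 6 remained the count in muscle. Deviations from the tissue mean did not go together by replicate number (mean correlation 0.0293, from -0.141 to 0.154 over 6 pairs of tissues). Such a correlation cannot show whether a number stands for an animal, and the neural group has no such pairs.

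The median a share moved to 46.6% for miR-23-3p with tails allowed, to 0.259% (identical reads), 2.28% (any ends) and 2.98% (21 nt or longer) for miR-27-3p, and to 83.3% for miR-24-5p with identical reads. With identical reads, the within-tissue difference exceeded that over all pairings for miR-27-3p (1.06) and miR-24-5p (2.29), and the latter then rested on 184 and 34 reads in all. With at least 100 changed reads, 11 of the 19 substitutions were called. The causes of these changes were not tested. No edgeR fit kept the 19-nt reads of miR-27a-3p. Depth limits miR-24-5p, with 18 to 525 reads by profile.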
